A study of Homo sapiens with 2 samples.

Results

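Peaks of SF3B1 contact in short protein-coding genes numbered 267 of 1406 distinct intervals in the deposited list, 19.0% (95% exact Clopper-Pearson interval 17 to 21.1). An interval was taken when its midpoint lay in the RefSeq span of a protein-coding gene that the list gives for it and when the longest such gene spanned less than 20 kb, and midpoints inside annotated small RNA genes, rRNA genes or their pseudogenes were left out. The 267 intervals fell in 220 genes and made up 21.5% (19.3 to 23.9) of the 1241 intervals of protein-coding genes chosen in the same way at any span. The rule used gene span and position but no height. The data came from 2 biological replicates of HITS-CLIP, in which ultraviolet light crosslinks RNA to protein, an antibody recovers the protein with its RNA, and the RNA is sequenced as short tags. Both libraries were of untreated MDA-231-LM2 cells, a subline of a human breast cancer line selected for spread to the lung, with an antibody against endogenous SF3B1, and they formed 1 group with no input or control library. The title and the antibody label name SF3B1, but the extract protocol names SNRBP2. The labels do not say whether the replicates were separate cultures.

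SF3B1 is the largest protein of SF3b, the part of the U2 small nuclear ribonucleoprotein (snRNP) that clamps the branch point adenosine of an intron. It contacts pre-mRNA on both sides of the branch point, a short way upstream of the pyrimidine tract and the AG that end the intron. Short human genes have short introns as a rule, and they include many of the most highly transcribed genes of a dividing cell, such as those of ribosomal proteins and actins. The authors pooled the tags of both libraries before calling peaks, so no value below has a replicate error, and no test between samples was possible. The height of an interval counts the pooled tags where they pile up highest. The depth of each library is unknown. Without an input library or transcript levels, SF3B1 contact cannot be told apart from the abundance of the RNA. Intervals and genes are not replicates, so differences between gene classes are described with their spread and carry no p-value, and intervals on shares cover counting error only.

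The letters under most intervals were not read because no genome was used, but RefSeq promoter windows (GRCh38.p14) touched 8 of the 267 intervals and held 4 of them whole. Windows of a neighbouring or antisense gene were read on the strand of the interval. At most 30 letters of 6 of these intervals are shown, 5′ to 3′ in the sense of the transcript. These 6 were picked because their held letters had a pattern marked below in capitals, so they are not neutral examples of what lay under a peak. In the first 4, capitals mark a run of at least 6 letters of C or T that is followed, after up to 8 letters of any kind, by CAG or TAG. In TXN and H2BC5, of which 38 of 43 nt and 27 of 57 nt were held, capitals mark the letters CTNAC, a short form of the branch site motif. The held letters of TUBA1B (25 of 46 nt) and ATP5F1E (3 of 43 nt) had neither pattern and are not shown. The midpoints of the TXN, H2BC5, MT2A and ENO1 intervals lay only 33, 52, 52 and 66 nt from the start of the gene span. Those of RPL10 and POLG lay at 419 and 901 nt. Whether any of the marked letters lie in an intron or serve in splicing was not tested.
ENO1: gcagcaccctccgCTTCCTCTCCTAGgcga
RPL10: tccgaCTCTCTCTTTTTCGTTGCAGccact
POLG: gctttatatcatctgTCTCCTTTAGgattt
MT2A: gtcccgactctagccgCCTCTTCAGctcgc
TXN: tggatccatttccatcggtcCTTACagccg
H2BC5: cagtgttCTAACtatta

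The ENO1 interval lies at chr1:8878597-8878643 (minus strand, hg38, the build of all positions here) and was 9 tags high. That of RPL10 lies at chrX:154398465-154398503 (plus strand) with 8 tags, and that of POLG, the catalytic subunit of the mitochondrial DNA polymerase, at chr15:89333902-89333945 (minus strand) with 9 tags. The interval of MT2A, a metallothionein that binds zinc and copper, lies at chr16:56608613-56608659 (plus strand) with 14 tags. Those of TXN, thioredoxin, at chr9:110256453-110256495 (minus strand) and of H2BC5, a histone of the H2B family, at chr6:26158145-26158201 (plus strand) had 9 and 7 tags. The run of C and T before an AG stood in all 4 whole intervals and in none of the other 3 of which at least 25 nt were held, TXN, H2BC5 and TUBA1B. In RPL10 the run alone was 13 nt long, and C and T made up 74.4% of the interval, against 68.1% in ENO1, 63.8% in MT2A and 54.5% in POLG. Of 35116 windows of 47 nt that begin at a RefSeq start, 11.8% held this pattern, and 9.62% did at 39 nt, on the transcript strand only. CTNAC was in none of the 4 whole intervals and in 11.6% of the windows of 47 nt. The pattern of C and T before AG was chosen after the sequences had been seen, and because only promoter windows were held these intervals lie near annotated starts and do not stand for the other members.

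A smaller share of short genes than of longer genes held an interval, but short genes held more intervals per length. Of 9037 protein-coding genes under 20 kb, 220 held a member, or 2.43% (2.13 to 2.77), against 6.52% of genes of 20 to 100 kb and 8.37% of genes of 100 kb or more (7.09% of all longer genes). Within the short genes the share was 0.935% under 5 kb, 2.56% at 5 to 10 kb and 3.78% at 10 to 20 kb. Per length the order was the reverse. Short genes held 3.56 intervals per Mb of annotated span, genes of 20 to 100 kb held 1.66 and genes of 100 kb or more held 0.436. The span of short genes was 5.79% of the summed span of protein-coding genes and held 27.3% of the summed peak heights.

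Heights of the 267 members ran from 4 to 99 tags around a median of 10, and the middle 50% of them lay between 7 and 13. Intervals in genes of 20 to 100 kb had a median of 7 (quartiles 6 and 10), and those in genes of 100 kb or more had a median of 6 (5 and 8). Within the short genes the median fell from 12 tags under 5 kb to 10 at 5 to 10 kb and 9 at 10 to 20 kb. The share of intervals of 20 tags or more was 10.1% (6.77 to 14.4) in short genes and 4.83% (3.57 to 6.37) in longer ones. These differences moved together with PH0, a value the list gives beside each height. Its meaning is not given in the sources used here, and it is read below as the height expected for the gene. Among intervals of like PH0 the members did not have the higher median height. The median PH0 was 0.18 tags for members and 0.03 for intervals in longer genes. Up to a PH0 of 0.05 the median height was 5.5 tags in 32 members and 6 in 636 intervals of longer genes, and over 0.05 to 0.1 it was 7 in both. Over PH0 of 0.1 to 0.2 the median height was 9 tags in 61 members and 10 in 76 intervals of longer genes. Over PH0 of 0.2 to 0.5 it was 12 in 77 members and 13 in 33 intervals of longer genes. Above 0.5 it was 16 in 45 members and 23.5 in 12 intervals that came from only 3 longer genes. The list keeps only peaks called significant, and the lowest listed height differed between these ranges of PH0. It was 4 tags in both classes in the lowest range, and 10 in members and 13 in longer genes in the highest. All these medians thus leave out lower peaks, to a different degree in each range. How much of the height in short genes goes with PH0 alone was not tested further.

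**Figure D1:**
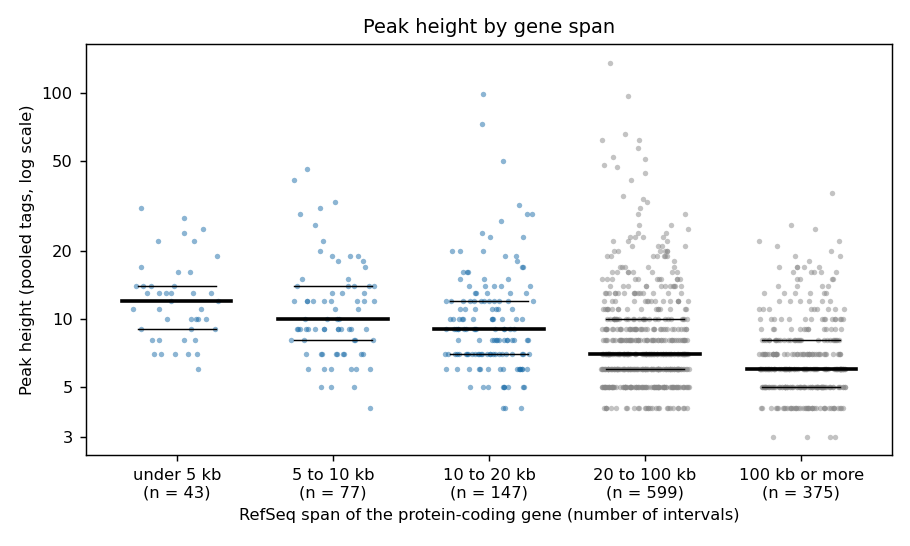
Height of each interval (pooled tags, log scale) by the RefSeq span of its protein-coding gene, with blue points for genes under 20 kb and grey points for longer genes; sideways scatter only separates the points, thick lines are medians and thin lines quartiles. Medians step down from 12 tags under 5 kb to 6 tags at 100 kb or more, while the tallest member, NDOR1 with 99 tags, lies in a gene of 10 to 20 kb.

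Member intervals lay all along the gene, with the fewest in the first of 5 equal parts. The midpoints had a median position of 58.9% of the span from the 5′ end. From the 5′ end, 5 equal parts of the gene held 34, 57, 48, 73 and 55 intervals, or 12.7% (8.98 to 17.3), 21.3%, 18.0%, 27.3% (22.1 to 33.1) and 20.6% (15.9 to 26.0). Longer genes leaned further toward the 3′ end, since the last of the 5 parts held 31.2% (27.5 to 35.1) of intervals at 20 to 100 kb and 43.2% (38.1 to 48.4) at 100 kb or more. The medians there were 65.5% and 75.9% of the span. In genes under 5 kb the 43 intervals had a median position of 50.2%. Height did not follow position in short genes, where the median was 9 or 10 tags in each of the 5 parts and Spearman's rho across the 267 intervals was 0.02, as a description of 1 pooled list.

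Near both ends of short genes the share of intervals did not differ from the share of the span beyond counting error. The first 1000 nt held 27 midpoints (10.1%, 6.77 to 14.4), where a window of this size is 13.1% of the span on average over the intervals. The last 1000 nt held 41 (15.4%, 11.3 to 20.2). The first 500 nt held 13 (4.87%, 2.62 to 8.18) and the last 500 nt 20 (7.49%, 4.64 to 11.3), where the window is 6.55% of the span. In the first 100 nt, which are 1.31% of the span, lay 6 midpoints (2.25%, 0.829 to 4.83), in TXN, TUBA1B, MT2A, H2BC5, ENO1 and ATP5F1E. TUBA1B encodes an alpha tubulin (9 tags) and ATP5F1E a small subunit of the mitochondrial ATP synthase (6 tags). At the other end, the last 100 nt held 2 midpoints (0.749%, 0.0908 to 2.68). PPP1R15A, which directs dephosphorylation of eIF2 after stress, held an interval of 7 tags centred 4 nt before the annotated end. PTGES, a prostaglandin E synthase, held one of 6 tags at 63 nt. No exon annotation was used, so none of these positions was assigned to an exon, an intron or a UTR.

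**Figure D2:**
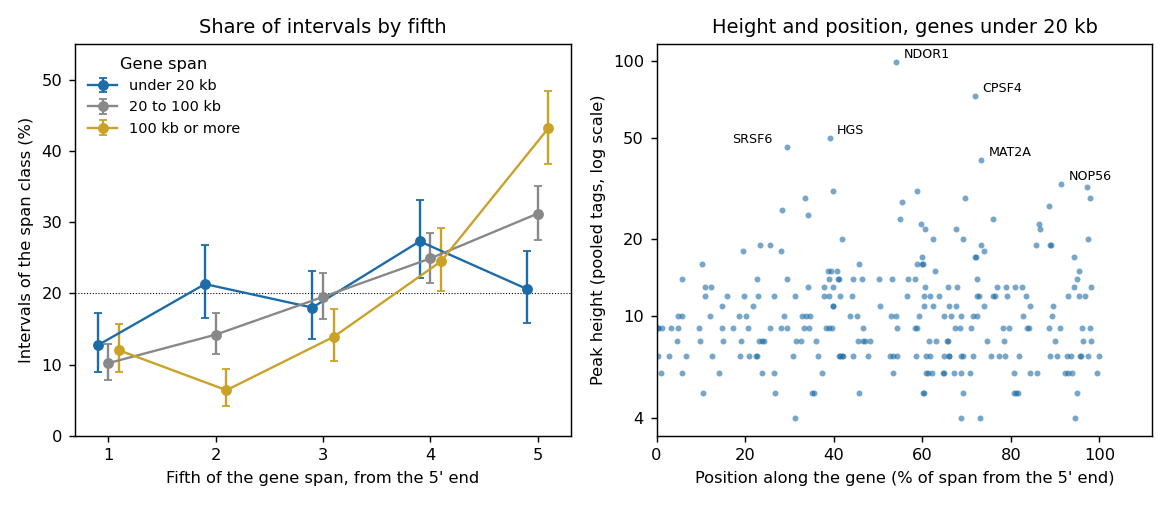
Left, share of intervals (%) in each of 5 equal parts of the gene span from the 5′ end for genes under 20 kb, of 20 to 100 kb and of 100 kb or more, with exact 95% intervals and a dotted line at an even share; right, height (pooled tags, log scale) of the 267 intervals in genes under 20 kb against position, with the 6 tallest named. The share in the last part is 20.6% in short genes and 43.2% in genes of 100 kb or more, and tall intervals lie along most of the span.

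The tallest members included genes of metabolism, pre-mRNA processing and endosomal sorting. NDOR1, a flavoprotein that feeds electrons into the assembly of cytosolic iron-sulfur clusters, held the tallest at chr9:137213069-137213113 (plus strand) with 99 tags, in the middle of a gene of 13662 nt. CPSF4, a zinc finger subunit of the complex that cleaves pre-mRNA at its poly(A) site, followed with 73 tags at chr7:99452185-99452227 (plus strand), and a second interval of 12 tags lay 1328 nt downstream. Both CPSF4 intervals also lie in the span of the readthrough gene ATP5MF-PTCD1. HGS, which sorts ubiquitinated receptors on endosomes, reached 50 tags at chr17:81691067-81691111 (plus strand). MAT2A, the enzyme that makes S-adenosylmethionine, reached 41 tags at chr2:85543633-85543675 (plus strand), at 73.4% of a gene of 6114 nt. SRSF6, an SR protein, was the only other member gene above 40 tags, with 46.

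The remaining tall members ranged from 26 to 33 tags. NOP56, a core protein of the box C/D snoRNPs that methylate rRNA, held 33 tags at chr20:2657872-2657920 (plus strand). TXLNA, a taxilin that binds syntaxins in vesicle traffic, held 32 tags at 97.3% of its span, at chr1:32197753-32197795 (plus strand), a place that also lies in CCDC28B. HMGA1, a chromatin protein that binds AT-rich DNA, held 31 tags and CDK16, a cyclin-dependent kinase, 29 tags in an interval 76 nt wide. HYOU1, a chaperone of the endoplasmic reticulum, held 29 tags at 98.0% of its span, inside HYOU1-AS1 as well. DDX5, an RNA helicase, held 29 tags in an interval that overlaps the miRNA gene MIR3064 by 10 nt with its midpoint outside it. NDUFV1, the subunit of respiratory complex I that binds NADH, held 26 and 19 tags in 2 intervals with centres 147 nt apart. Together with SRSF6, RPL10A (31 tags), RPL13A (28) and HNRNPA2B1 (27), these made the 15 tallest members, which held 18.8% of the summed heights.

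Heights were next read against PH0. The ratio of height to PH0 had a median of 58.3 over the 266 members with PH0 above 0 (quartiles 31.1 and 97.5), against 167 at 20 to 100 kb and 350 at 100 kb or more. PH0 was one value per gene: all 33 member genes with more than 1 interval had a single PH0. Across the 220 genes it fell with span (Spearman's rho -0.41) and rose with the tallest height (0.76). The list keeps peaks called significant, and among members the lowest listed height rose with PH0, from 4 tags at PH0 up to 0.05 to 7 at 0.2 to 0.5, 10 at 0.5 to 1 and 13 above 1. Heights below these values were thus not listed for genes of high PH0.

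The lowest ratios were in genes of high PH0. CCN1, a secreted matricellular protein and target of YAP, had 17 tags over a PH0 of 2.59, a ratio of 6.56. MT2A had a ratio of 8.28 and FTL, the light chain of ferritin, 9.22 (13 tags). The lower 2 intervals of NOP56 had ratios of 9.03 and 9.68, and the lowest of SRSF2 had 9.30. At the other end RPL37A, of the large ribosomal subunit, had 7 tags over a PH0 of 0.01, a ratio of 700. PH0 is given to 2 decimals, so this ratio could lie between 467 and 1400. The same holds for the 4 genes at 400, C2orf69, MRPL46, SNX11 and ZNF621, each with 4 tags over 0.01 and bounds of 267 and 800. Among intervals of 20 tags or more, whose PH0 is better resolved, the highest ratios were 229 in TXLNA, 221 in CPSF4, 150 in NDOR1 and 141 in HSP90B1. RCN1, a calcium-binding protein of the endoplasmic reticulum, had 7 tags and a PH0 listed at 0, so no ratio was formed.

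**Figure D3:**
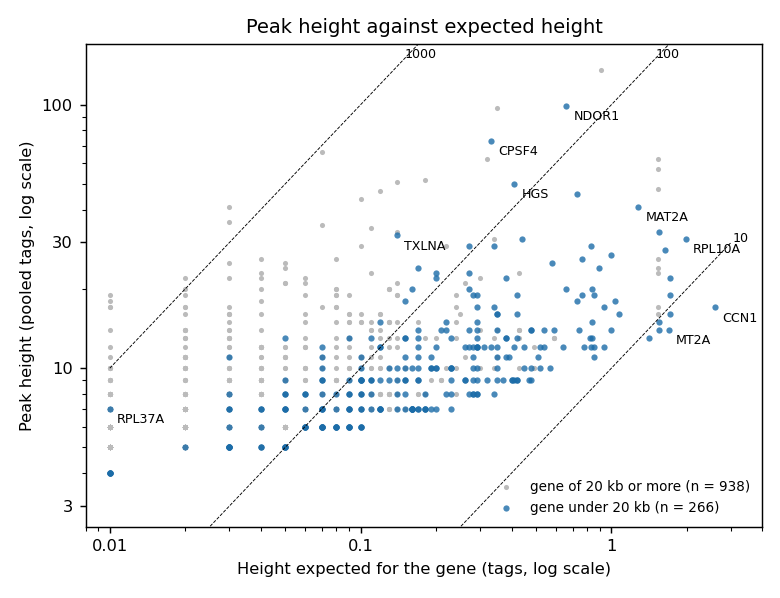
Height of each interval (pooled tags, log scale) against the height expected for its gene (tags, log scale), in blue for the 266 members and in grey for the 938 intervals of longer genes with an expected height above 0; dashed lines mark ratios of 10, 100 and 1000. Members lie to the right of most intervals of longer genes, with median expected heights of 0.18 and 0.03 tags, and the lower edge of both clouds rises with the expected height.

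SR and speckle proteins held intervals in most of their short genes. SR proteins bind exonic enhancers and recruit the spliceosome, and several control their own level by splicing of a conserved exon that triggers decay of the mRNA. In a list of SR and nuclear speckle proteins, 12 of 19 genes under 20 kb held an interval, or 63.2% (38.4 to 83.7), against 2.43% of all short protein-coding genes. All lists were written with earlier results of these data known. High shares may thus be partly built in, and they were not tested. The list also holds DDX5 and U2AF2, and U2AF2 is counted with the U2 snRNP and branch site proteins too. Among genes named SRSF it was 7 of 9. SRSF6 held 46 tags at chr20:43459737-43459781 and 18 tags at chr20:43459121-43459163 (plus strand), both in the first 30% of the gene. SRSF2 held 3 intervals of 16, 22 and 19 tags from 5′ to 3′ over 3297 nt, and SRSF5 held 7, 13 and 7 tags. SRSF1 held 12 and 10 tags with centres 212 nt apart near its start, and SRSF10 held 8 and 10 tags with centres 197 nt apart. SRSF3 (11 tags) and SRSF9 (7 tags) held 1 each. Outside this family SRRM2, a scaffold of speckles, held 15 and 17 tags, CLK1, a kinase of SR proteins, 7, and DDX39A, an mRNA export helicase, 7. The 21 intervals of the list had a median of 12 tags and a median ratio of 50, against 10 and 58.3 for all members.

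The hnRNP genes, whose products coat pre-mRNA and often repress exons, were the other such group. Of 17 under 20 kb, 9 held an interval, or 52.9% (27.8 to 77.0). HNRNPA2B1 held 27 and 14 tags close to its 3′ end, at 88.6% and 94.9% of the span. HNRNPA1 held 17 and 12 tags, HNRNPH3 16 and 9, and HNRNPU 12 and 12. One HNRNPU interval overlaps SNORA100 by 2 nt. HNRNPDL held 12 tags, HNRNPUL2 10 and 7, HNRNPK 9 and HNRNPAB 8. Of U2 snRNP and branch site proteins, 3 of 19 short genes held one (15.8%, 3.38 to 39.6): SNRPA1, the U2 protein A′, with 10 and 7 tags, SF1, which binds the branch point before U2 arrives, with 8, and U2AF2, which binds the pyrimidine tract, with 7. Heights in these genes were below the median of all members except in the taller SNRPA1 interval, which equalled it. Of other RNA-binding proteins, NONO of the paraspeckles held 3 intervals of 14, 16 and 11 tags, its partner SFPQ 1 of 8, CIRBP, induced by cold, 1 of 13, and PABPC4, a poly(A)-binding protein, 12 and 9.

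Cytosolic ribosomal proteins, translation factors and chaperones had shares above the 2.43% of all short genes, as did every list with an interval. Over all lists together, 81 of 506 short genes held one, so a share above 2.43% is not particular to these groups. The ribosomal proteins had an interval in 15 of 77 short genes (19.5%, 11.3 to 30.1), with a median of 12 tags and a median ratio of 29.8 over 18 intervals. RPL10A held 31 tags at chr6:35469329-35469372 (plus strand), RPL13A 28 and RPLP2 24. RACK1, a scaffold on the small subunit, held 20 tags at 97.5% of its span. RPL10 held 4 intervals of 8, 10, 10 and 13 tags from 5′ to 3′. Translation factors had 6 of 21 (28.6%, 11.3 to 52.2), led by EEF1A1 with 14 and 10 tags, EIF1 with 12 and EIF4A1 with 12. Chaperones had 6 of 23 (26.1%, 10.2 to 48.4), led by HYOU1, HSP90B1 of the endoplasmic reticulum with 24 tags and CDC37, which loads kinases onto HSP90, with 13. Nucleolar and snoRNP proteins had 2 of 19 (10.5%, 1.3 to 33.1), NOP56 and MYBBP1A (10 tags).

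Some of these genes carry small RNA genes in their introns. Of the members, 11 lay within 200 nt of one, in 9 genes. They included RPLP2 (82 nt from SNORA52), RPL13A (143 nt from SNORD32A), the 15 tags of TAF1D, a subunit of the RNA polymerase I factor SL1 (46 nt from SNORA25), and 2 NOP56 intervals. Another 24 intervals in genes under 20 kb were centred within such a gene or a pseudogene of one and were left out. RPL13A, RACK1, NOP56 and EIF4A1 each held an interval that was left out and at least 1 member. Of these, RPL13A and NOP56 had members within 200 nt of a small RNA gene. Without the 11 near intervals the median height was 9 tags.

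**Figure D4:**
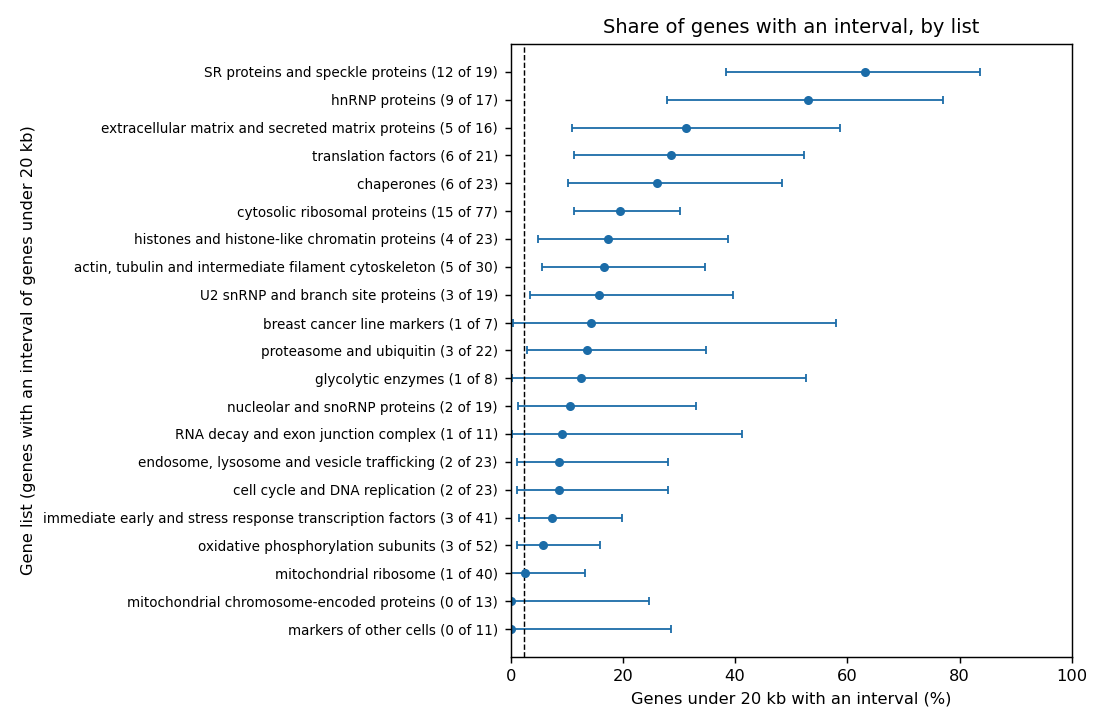
Share (%) of protein-coding genes under 20 kb with at least 1 interval for each gene list, with exact 95% intervals; counts stand beside the list names and the dashed line marks the 2.43% of all such genes. SR and speckle proteins (12 of 19) and hnRNP proteins (9 of 17) have the highest shares, and the mitochondrial ribosome (1 of 40) lies at the line. The lists were written with earlier results of these data known, and over all of them 81 of 506 genes held an interval.

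Both cytoplasmic actins held several intervals, and each matrix gene with an interval held 1. ACTB, a cytoplasmic actin, held 5 intervals, the most of any member gene, with 11, 7, 14, 9 and 9 tags from 5′ to 3′ over 3454 nt. ACTG1, the other cytoplasmic actin, held 11, 13 and 22. VIM, the intermediate filament of mesenchymal cells and the only 1 of 7 short marker genes of the line with an interval, held 18 tags. TUBB4B, a beta tubulin, held 10. In all, 5 of 30 short cytoskeletal genes held an interval (16.7%, 5.64 to 34.7). Extracellular matrix and secreted matrix genes had 5 of 16 (31.2%, 11 to 58.7): LAMB2, a laminin chain, with 19 tags, CCN1 with 17, THBS1, thrombospondin, with 11, PLAU, the urokinase, with 9, and LGALS3, a galectin, with 7. ENO1, the enolase of glycolysis, was the only 1 of 8 short glycolytic genes, with 9, 16 and 13 tags.

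**Figure D5:**
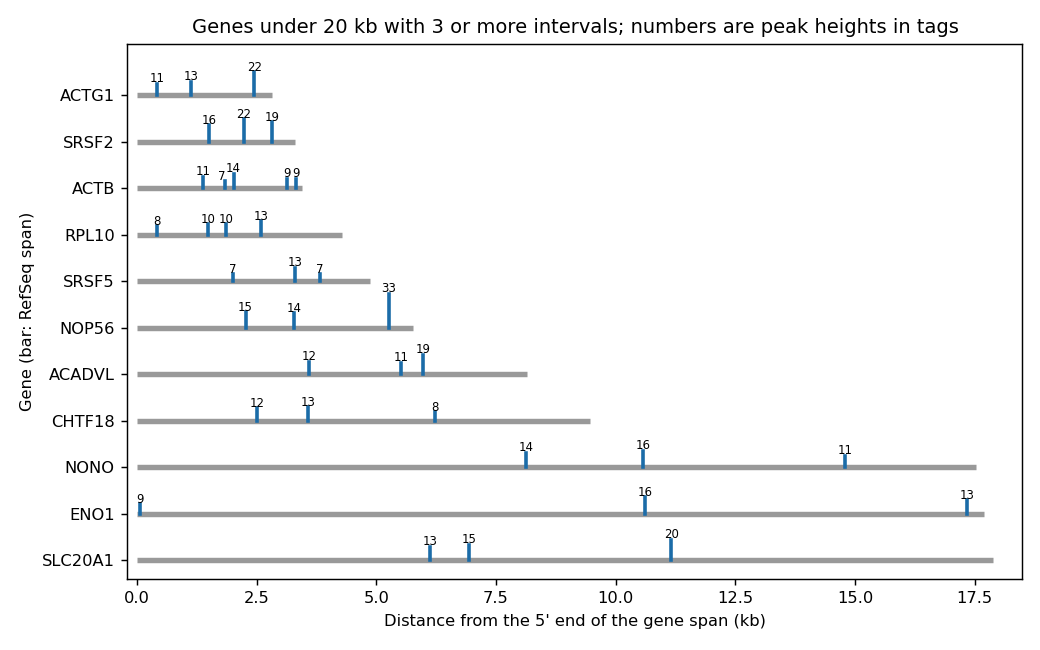
The 11 member genes with 3 or more intervals, drawn to scale from the 5′ end of the RefSeq span (kb, grey bars), with a blue tick at each interval's midpoint whose length and number give the height in tags. ACTB holds 5 intervals of 7 to 14 tags, RPL10 holds 4, and NOP56 has the tallest of the set with 33 tags.

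Most genes held a single interval. Of the 220 genes, 187 held 1, 22 held 2 and 11 held 3 or more. The 11 were ACTB, RPL10, NOP56, ACTG1, SRSF2, SLC20A1, ACADVL, ENO1, NONO, CHTF18 and SRSF5. SLC20A1, a phosphate transporter, held 13, 15 and 20 tags, and ACADVL, an enzyme of fatty acid oxidation, held 12, 11 and 19, the last 165 nt from MIR324. CHTF18, which helps load the replication clamp, held 12, 13 and 8. In the 33 genes with more than 1 interval the tallest was a median of 1.45 times the lowest, and CPSF4 had the widest ratio at 6.08. Intervals of 1 gene also share 1 PH0. Whether their heights are closer than those of intervals from different genes was not tested. The smallest distance between centres in a gene had a median of 813 nt. It was under 200 nt in NDUFV1, ACTB (174 nt) and SRSF10. Intervals of 1 gene share its transcript, so they are not independent.

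Each of the other lists had at most 4 genes with an interval. The mitochondrial ribosome had 1 of 40 (2.5%, 0.0633 to 13.2, MRPL52 with 10 tags), and oxidative phosphorylation 3 of 52 (5.77%, 1.21 to 15.9, with NDUFV1, ATP5F1E and UQCR11). A list of immediate early and stress response transcription factors, which also holds other proteins, had 3 of 41. These were the chromatin protein HMGA1, HES1 with 13 tags and ZFP36L1, which destabilises AU-rich mRNA, with 10. Proteasome and ubiquitin genes had 3 of 22, or 13.6% (2.91 to 34.9), in PSMC5 and PSMD13 with 8 tags and UBE2S with 7. Histones and related chromatin proteins had 4 of 23, or 17.4% (4.95 to 38.8), in HMGA1, SET with 9 tags, H2BC5 and H3-3B with 6. Cell cycle and replication genes had 2 of 23 (CCND1, a cyclin, with 12 tags and MCM4, of the replicative helicase, with 9), trafficking genes 2 of 23 (HGS and CTSA, a lysosomal carboxypeptidase, with 19), and the exon junction and decay list 1 of 11 (RBM8A, 6 tags). No interval lay in the 13 protein-coding genes of the mitochondrial chromosome, which allows a share of up to 24.7%, or in 11 short marker genes of other cell types (up to 28.5%). By symbol, 0 of 372 olfactory receptor genes under 20 kb held an interval, 2 of 204 ZNF genes, 2 of 83 histone genes and 7 of 113 SLC genes.

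The lists named 81 of the 220 genes, and the other 139 were grouped by known function after their heights had been seen. Inside the lists the 111 intervals had a median of 11 tags and a median ratio of 39.3, and outside them the 156 intervals had 9 and 74.1. Signalling genes included CDK16, SPRY4, an inhibitor of receptor tyrosine kinase signalling, with 23 tags, SHC1, an adaptor of growth factor receptors, with 12 and 23, and ILK, an integrin-linked pseudokinase, with 15. CSF3, the granulocyte colony-stimulating factor, held 16 tags and VEGFA, an angiogenic factor, 12. Genes of chromosome segregation and genome maintenance included ZWINT of the kinetochore with 25 tags, CDCA8 of the chromosomal passenger complex with 13, BUB3 of the spindle checkpoint with 11 and RECQL4, a DNA helicase, with 9. Of the transcription machinery, MED10, a Mediator subunit, held 22 tags, TRIM28, a corepressor of transposons, 14 and NELFB, which holds paused RNA polymerase II, 13. Carriers included TCIRG1 of the proton pump with 17 tags, SLC1A5, a glutamine transporter, with 14 and SLC25A3, the mitochondrial phosphate carrier, with 12. A further 55 genes belonged to no list or group, with 56 intervals of 4 to 32 tags and a median of 7. TXLNA, ENC1, DENND4B, FLII and NOC2L were the tallest of them.

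The shortest member genes were MT2A (914 nt), FTL (1571 nt), RPL36 (1581 nt), CSF3 (2374 nt) and RPL10A (2380 nt), with 14, 13, 8, 16 and 31 tags. Just inside the limit of 20 kb lay FOXM1 (19495 nt, 6 tags), U2AF2 (19682 nt, 7 tags) and ZFAND1 (19974 nt, 7 tags), and just outside it AMOTL2 (20073 nt, 8 tags), ITGB1BP1 (20095 nt, 8 tags) and SEC13 (20182 nt, 5 tags). Members lay on 136 plus and 131 minus strands, and all 215 whose gene has a promoter entry lay on the strand of that gene. The list itself names the gene of each interval, in a way not stated, so this match may be built in. Their median width was 43 nt (quartiles 43 and 46, range 24 to 92). Chromosomes 1 (31 intervals), 17 (30) and 19 (23) held the most intervals, with 2.65%, 3.14% and 2.54% of their short protein-coding genes among the members. The share was highest on chromosome 10 (4.24%, 10 of 236 genes). No member lay on chromosomes 13 (98 such genes), 18 (56), Y (40) or the mitochondrial chromosome (13). A further RefSeq gene covered the midpoint of 26 members, a protein-coding one in 7 of them, and which gene those tags came from was not tested.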

How the data were processed

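SF3B1 HITS-CLIP was run on 2 replicates of MDA-231-LM2 cells. The authors deposited 1 peak list made from the pooled unique tags of both libraries, with significant peaks bounded at a set part of their height, per the file's name. Its signal is the peak height in tags, without normalization. A text field deposited by the authors gives the gene number, expected height (PH0) and p-value of each peak. The submitters' processing notes name hg38, BWA 0.7.17 and cutadapt 2.3. What called the peaks, and on which gene annotation, is not given in the sources used here.

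That list's 1587 rows were reduced to 1406 distinct intervals. Genes, spans and symbols came from the RefSeq table of GRCh38.p14, and small RNA genes were those of at most 500 nt. Direction along a gene was taken from the strand of the interval. Sequences came from RefSeq promoter windows, from 250 nt before to 50 nt after each start; 179 of 220 genes were matched. Gene lists held 742 symbols, of which 741 matched and 506 were under 20 kb. Members and lists were chosen with earlier results of these data known, so no list was tested. Named genes were the 15 tallest intervals, genes with 3 or more intervals, the 5 highest and lowest ratios, the 5 shortest genes, the 3 on each side of 20 kb, up to 3 per list, and intervals at gene starts. Every other gene named was picked with its values in view. Classes by exon, intron and splice site had been planned and were not run. The interval assignment was tested on simulated data. Scripts ran in Python 3.11.15 with pandas 2.3.3 and numpy 2.4.6. Intervals on shares were taken from scipy 1.17.1, and plots were drawn by matplotlib 3.10.9.

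Some genes are not reported here.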

Additional observations from a re-analysis of the deposited data

How the results depend on the processing

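No paired analysis was possible because both replicates were pooled in 1 list, and for the same reason no replicate could be left out. The results were recomputed in 133 cases over 19 settings, of which 7 settings were added after the data had been seen. Leaving out the mitochondrial chromosome could not change the members, since none lay there. Merging intervals within 50 nt joined no members, whose centres were at least 147 nt apart within a gene. In 111 cases, which include all those of these 2 settings, the value stayed within 1.5 times the main count or within the exact 95% interval of the main share or median. The median position (55.4 to 60.1%) and the shares in the first (12.1 to 14.2%) and last (18.0 to 22.5%) of 5 equal parts of the gene did so under every setting run. The difference in median log2 height between members and intervals of longer genes, 0.51, turned or vanished within bins of expected height: -0.13 up to 0.05, 0 over 0.05 to 0.1, -0.15 over 0.1 to 0.2, -0.12 over 0.2 to 0.5 and -0.55 above 0.5. With a span limit of 10 kb there were 120 intervals in 94 genes, with a median height of 10.5, a median ratio of 34.9, a log2 difference of 0.58, 9.67% of protein-coding intervals and 1.65% of genes. With a limit of 30 kb the ratio was 71.4, the share of intervals 30.9% and that of genes 2.84%. Among intervals above the median height of the list, these were 12, 44.4, 0.26, 33.8% and 1.65% for the height, ratio, difference and both shares. With p-values below 0.01 the share of genes was 2.05%, and with 1 interval per gene the ratio was 66.7. The median height lies on the edge between 9 and 10 tags, and removing a few intervals moves it to 9. Heights of 4 to 7 tags differ by counts that a second library could change, and depth per library is unknown.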
